A study of Mus musculus with 12 samples.

Results

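Ephrins, Slits and netrins are the ligands of 3 axon guidance systems, and Eph receptors, Robo receptors, UNC5 proteins, Dcc and neogenin are their receptors. The gene set described here held every row of the deposited count table named as an Eph receptor (Epha or Ephb with a number) or an ephrin (Efna or Efnb with a number), together with 17 named Slit, Robo, netrin, netrin-G and netrin receptor genes. Of the 39 symbols these rules gave, 38 had a row, of 47480 symbols in the table. Ntn3 is not analysed here. The members fell into 7 role groups, of 14 Eph receptors, 8 ephrins, 3 Slit ligands, 3 Robo receptors, 2 netrins, 2 netrin-G proteins and 6 netrin receptors.

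RNA sequencing of mouse trigeminal nerve, which carries touch and pain from the face, compared 6 libraries of normal nerve with 6 of plexiform neurofibroma, a benign tumour of the nerve sheath. All the mice were Nf1 flox/flox, so the controls carried floxed alleles of Nf1 too, and the groups were PostnCre- (normal nerve) and PostnCre+ (plexiform neurofibroma). Nf1 encodes neurofibromin, which turns RAS signalling down, and Postn-driven Cre deletes the floxed alleles in cells that express or once expressed Postn, which in developing nerve include Schwann cell precursors. The tumour group therefore differed from the controls in both Cre and tumour. The title of the series names CDK4/6 and ERK1/2 inhibition, and the labels give none of these samples a treatment. Age, sex, litter and batch are not given in the labels, nor is it stated that each library came from a separate animal, so the p-values measure the spread between these libraries.

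Eph receptors are receptor tyrosine kinases that meet their ligands where cells touch. A-class ephrins are held to the membrane by a lipid anchor and B-class ephrins span it, and both sides of the contact can signal. Slits are secreted repellents read by Robo receptors. Netrin-1 attracts axons through Dcc and neogenin and repels them through UNC5 proteins, and netrin-4 binds laminin in basement membranes. In peripheral nerve, contact between ephrin-B on fibroblasts and Ephb2 on Schwann cells is known to sort Schwann cells into cords after a cut.

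Each library held 14160025 to 19989351 estimated counts. Nf1, the targeted gene, fell from 131 ± 35.8 to 83.8 ± 8.13 CPM (reads scaled to library size, mean ± SD, n = 6 in each group), a log2 fold change of -0.65 (edgeR quasi-likelihood test, Benjamini-Hochberg adjusted p = 0.0179), with overlapping groups. The value sums reads over the whole gene and does not resolve the deleted part, and Evi2a, Evi2b and Omg lie within Nf1 on the other strand. Of the marker lists, 5 of 10 Schwann cell and 5 of 8 fibroblast markers were called higher in the tumour (10.0% of all genes were). So were 3 of 8 macrophage markers and 2 of 8 pericyte and smooth muscle markers, of which 3 had estimates below 0. Of 9 endothelial markers, 1 (Cdh5) was called lower (8.63% of all genes were). The calls of Sox10, Col1a1, Dcn, Csf1r, Cx3cr1, Pdgfrb and Cdh5 were each lost when any 1 of several libraries was left out. The other marker calls in these lists were kept whichever single library was left out. The summed Schwann cell markers spanned 4569 to 11580 CPM in normal nerve and 10160 to 17790 in the tumour, and the fibroblast markers 183 to 1266 against 1467 to 3441. The macrophage markers summed to 43.7 to 211.6 against 144.7 to 302.5 CPM, the pericyte and smooth muscle markers to 130.1 to 458.8 against 228.9 to 573.0, and the endothelial markers to 112.1 to 249.4 against 102.9 to 167.8. In bulk tissue, fewer cells of a type and less RNA per cell cannot be told apart.

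Transcripts of sensory neurons were present in every library (12 markers, 4178 to 7607 CPM in normal nerve and 4728 to 6391 in the tumour, with Snap25 alone of the 12 called lower). Normal nerve replicate 6 stood apart: its 10 markers of central nervous system (CNS) glia and neurons summed to 2362 CPM, against at most 370.6 in the other normal libraries and 63.2 to 648.5 in the tumours, and its sensory neuron sum was the lowest of the normal libraries. Opalin, Gad2 and Neurod6 of that list were at 0 in some libraries. Without that library 7 of the 12 sensory neuron markers were called lower, beside 14.2% of all genes in that fit. The Schwann cell and fibroblast sums were lowest in normal nerve replicate 2, and plexiform neurofibroma replicate 1 and normal nerve replicate 3 had skeletal muscle markers at 1931 and 459.0 CPM, against at most 54.0 elsewhere, with Ckm at 0 in some libraries. The sensory neuron, CNS and skeletal muscle marker scores were each used as a covariate among the other settings. Beyond those fits, the part of these differences in the results below was not tested.

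Of the 38 members, 35 had counts enough to be tested. The other 3 were Epha1 (highest value 0.865 CPM), Efna4 (0.966 CPM) and Dcc (5.64 CPM in normal nerve replicate 6 and at most 0.748 CPM in the other libraries). In the tumour, 12 of the 35 were called, that is, passed an adjusted p of 0.05 over all 17236 genes tested. This is 34.3% of the members, beside 18.7% of all genes. Called higher were 5 (14.3%, beside 10.0% of all genes), namely Epha2, Ephb3, Ephb6, Efnb1 and Ntn4. Called lower were 7 of 35 (beside 8.63% of all genes), namely Epha6, Efna5, Efnb2, Slit1, Robo1, Ntng1 and Unc5a. The groups did not overlap in 3 members (8.57%, beside 7.39%). Ephb3 and Efnb1 were higher in every tumour than in any normal library (4.4% of all genes were), and Unc5a was lower (2.99% of all genes were). The median log2 fold change of the 35 was -0.33, beside -0.021 for all genes, and 24 of the 35 were below 0.

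Without normal nerve replicate 6, 7 members were called higher and 10 lower, beside 28.8% of all genes called in either direction (14.6% higher and 14.2% lower), and the members' median was -0.15. Ephb3, Efnb1, Epha6, Efna5, Slit1, Robo1 and Unc5a, 7 of the 12, kept their call in each of the 23 other settings run, which include leaving out each library in turn. The plot of changes by role group shows both directions within the Eph receptors, the ephrins and the netrin system.

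**Figure D1:**
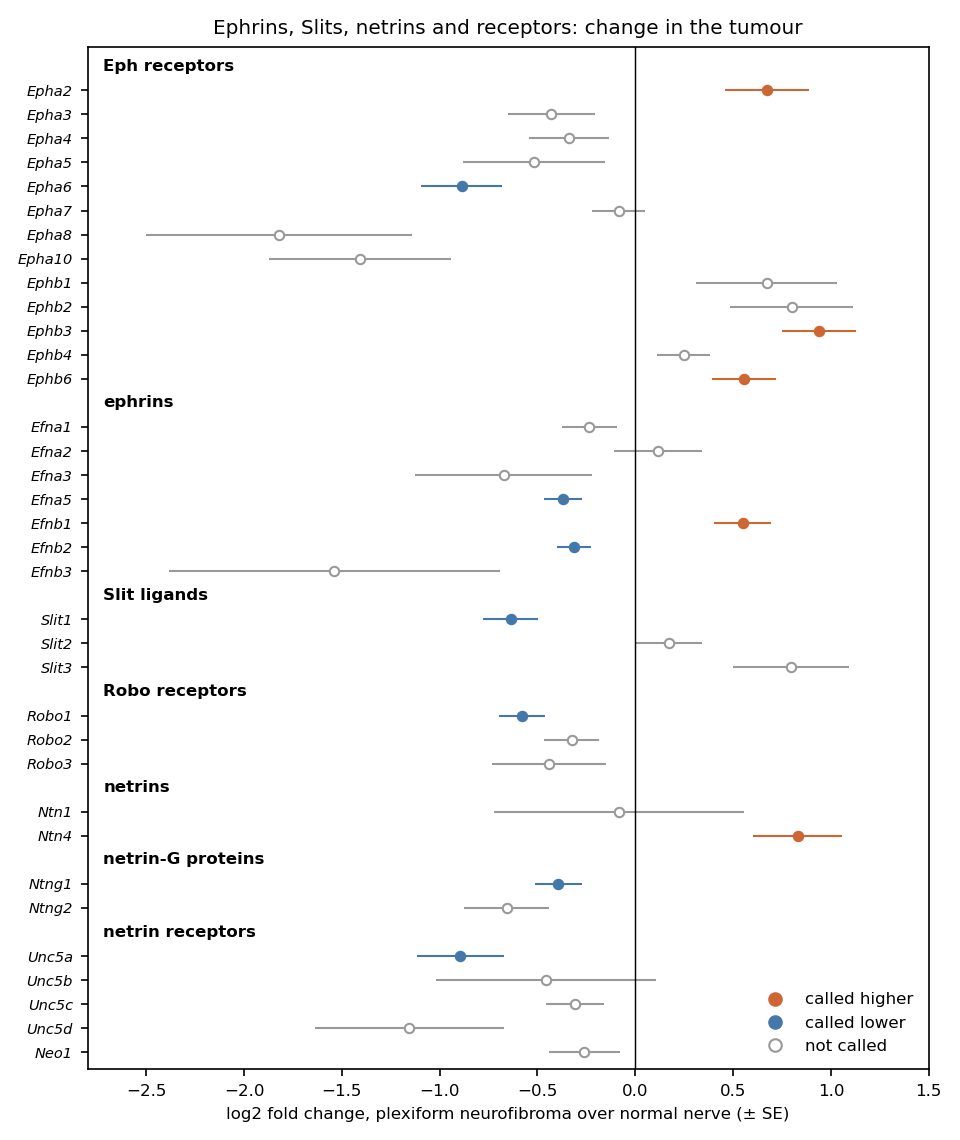
Log2 fold change of each of the 35 tested members (x axis, plexiform neurofibroma over normal nerve; points are edgeR estimates and bars 1 SE) by role group, with filled points for members called higher or lower and open points for those not called. All 5 EphB receptors lie to the right of 0 and all 3 Robo receptors to the left, and the widest bars belong to genes such as Efnb3, Epha8 and Ntn1 that were far higher in 1 normal library.

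Promoter sequence is shown for Ephb3 and Efnb1, called higher, and Epha6 and Unc5a, called lower. In each direction these were the 2 called members with the smallest p-values that had exactly 1 RefSeq promoter entry and a window within it. Robo1 and Slit1 had smaller p-values than Epha6 and did not meet this. The stretch given lies just before the first annotated start. Each line holds the 200 bases before that start, 5′ to 3′ on the gene's strand, from RefSeq's promoter table (GRCm38.p6), with GC boxes (GGGCGG, the site bound by SP1-family factors, on either strand) in capitals.
Ephb3, chr16:21204555-21204754, plus strand: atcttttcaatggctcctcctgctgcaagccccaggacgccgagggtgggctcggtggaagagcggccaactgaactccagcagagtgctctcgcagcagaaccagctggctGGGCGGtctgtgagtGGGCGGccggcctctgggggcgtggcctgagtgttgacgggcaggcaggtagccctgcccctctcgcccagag
Efnb1, chrX:99135861-99136060, plus strand: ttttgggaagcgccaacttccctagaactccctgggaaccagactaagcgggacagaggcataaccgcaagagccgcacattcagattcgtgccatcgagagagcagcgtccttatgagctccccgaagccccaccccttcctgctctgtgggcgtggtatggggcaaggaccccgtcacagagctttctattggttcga
Epha6, chr16:60605532-60605731, minus strand: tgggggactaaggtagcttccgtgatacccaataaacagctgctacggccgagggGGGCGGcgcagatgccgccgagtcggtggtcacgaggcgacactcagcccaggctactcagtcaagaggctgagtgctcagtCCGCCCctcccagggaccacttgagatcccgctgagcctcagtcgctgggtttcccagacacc
Unc5a, chr13:54949211-54949410, plus strand: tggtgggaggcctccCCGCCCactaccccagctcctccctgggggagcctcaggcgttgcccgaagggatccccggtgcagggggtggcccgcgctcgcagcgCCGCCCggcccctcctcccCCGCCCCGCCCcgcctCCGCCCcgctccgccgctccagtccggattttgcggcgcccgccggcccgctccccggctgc
The GC box occurred 2 times for Ephb3, 0 times for Efnb1, 2 times for Epha6 and 5 times for Unc5a, where 2 of the matches overlap, so a rising and a falling gene carried the same number. Of 32851 RefSeq promoters, each taken as the 200 bases before its RefSeq start, 31.05% held at least 1. The 4 windows above instead end before the earlier of the RefSeq and GENCODE starts. The AP-1 motif (TGANTCA), a SOX motif (AACAAT) and an ETS motif (CCGGAAG), searched on both strands, had 0 matches in these 4 windows and occurred in 5.48%, 7.46% and 6.29% of all promoters. G or C made up 57.5% of the window for Efnb1, 63.5% for Epha6, 67.0% for Ephb3 and 80.5% for Unc5a. RefSeq entries matched 33 of the 38 members and 11 of the 12 called.

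Among the Eph receptors, estimates of the B class and of the A class lay mostly on opposite sides of 0. All 5 EphB receptors were above 0 in the tumour, with a median log2 fold change of 0.67 and 2 called higher, and all 5 stayed above 0 in each of the 23 other settings. Of the 8 EphA receptors tested, 7 were below 0, 1 was called higher and 1 lower. Their median was -0.47 (-0.16 without normal nerve replicate 6, with 6 below 0). Over all genes, 10.0% were called higher and 8.63% lower. The difference between the classes was not tested.

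Ephb3, a receptor tyrosine kinase for B-class ephrins (ENSMUSG00000005958.15, GRCm38 chr16:21204755-21223305), had the clearest rise of the family. It was at 4.48, 7.83 and 10.7 CPM (lowest, median and highest) in normal nerve and at 11.7, 14.4 and 18.4 CPM in the tumour. Every tumour lay above every normal library, the normal library lowest in Ephb3 being replicate 2. The mean rose from 7.65 ± 2.08 to 14.7 ± 2.82 CPM, 1.92-fold (log2 0.94, SE 0.19, adjusted p = 0.0066).

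Ephb6, which has a kinase domain without catalytic activity (chr6:41605482-41620509), was the most abundant Eph receptor per length, at 9.44 CPM per kb of longest transcript in normal nerve and 13.9 in the tumour. Its share of the summed Eph level per kb was 25.3% and 34.8%. Normal libraries were at 26.5, 33.7 and 52.1 CPM and tumours at 40.6, 50.6 and 64.6, and 2 tumours lay above the highest normal library. The mean rose 1.47-fold from 35.5 ± 8.95 to 52.3 ± 9.68 CPM (log2 0.56, SE 0.16, adjusted p = 0.0313). The call was lost without any 1 of 7 libraries (replicates 2 to 5 of normal nerve, or 2, 4 and 6 of the tumour, adjusted p up to 0.0764) and without the 3 libraries that stood apart (replicates 2 and 6 of normal nerve with replicate 1 of the tumour), at 0.0956, and with no filter on low counts, at 0.0505.

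Epha2, the A-class receptor best known from epithelia and carcinomas (chr4:141301240-141329384), was a low-level gene, at 2.70, 3.45 and 5.33 CPM in normal nerve and 4.58, 5.38 and 9.09 CPM in the tumour. All 6 tumours were above the normal median and 3 above the highest normal library. The mean rose 1.59-fold from 3.74 ± 1.04 to 5.96 ± 1.67 CPM (log2 0.67, SE 0.21, adjusted p = 0.0448). This call, close to the threshold, was lost without any 1 of 9 libraries (replicates 2 to 6 of normal nerve, or 1, 2, 4 and 6 of the tumour, adjusted p up to 0.109) and without the 3 libraries that stood apart (0.103). It was also lost with no filter on low counts (0.0679) and with the sensory neuron or the skeletal muscle marker score as a covariate.

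Epha6, an A-class receptor found mainly in neurons (chr16:59653483-60605531), was the most abundant EphA receptor per length in normal nerve. It was at 12.6, 20.5 and 30.2 CPM in normal nerve and 9.74, 10.8 and 14.4 CPM in the tumour, and 5 of 6 tumours lay below the lowest normal library. The lowest normal value was that of replicate 6, the library high in CNS markers. The mean fell from 20.8 ± 7.23 to 11.2 ± 1.66 CPM, to 0.54 of normal (log2 -0.89, SE 0.21, adjusted p = 0.0125). Epha6 made up 14.2% of the summed Eph level per kb in normal nerve and 7.16% in the tumour.

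The ratio of Ephb3 to Epha6 CPM within a library sums up these opposite movements. It was 0.217, 0.307 and 0.740 in normal nerve (lowest, median and highest) and 0.811, 1.29 and 1.89 in the tumour. The groups did not overlap, and since the pair was chosen for its opposite changes this is a description.

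**Figure D2:**
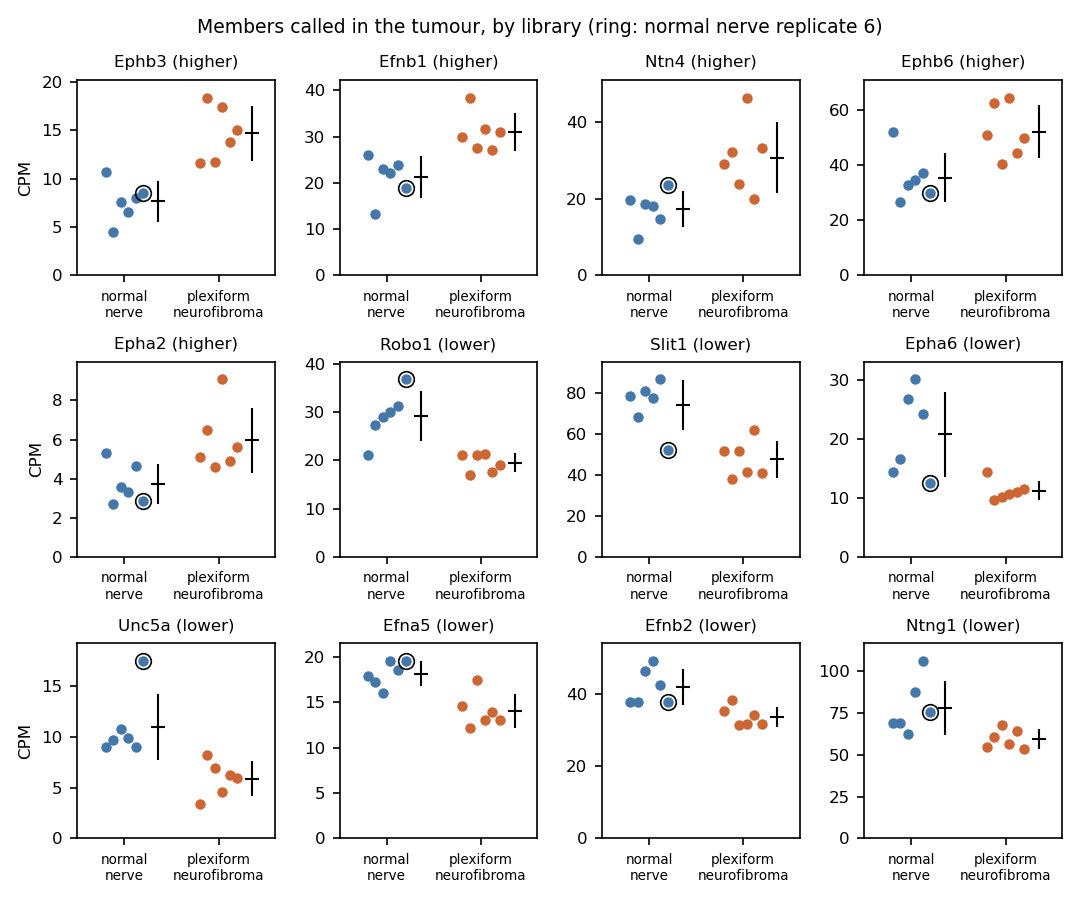
CPM (y axis, from 0) of the 12 called members in each of the 6 normal nerve and 6 plexiform neurofibroma libraries; points are libraries, the horizontal mark and bar beside them are the mean and SD, and a ring marks normal nerve replicate 6. Ephb3, Efnb1 and Unc5a show no overlap between the groups, while the other 9 overlap.

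Of the EphB receptors not called, Ephb2, the receptor of the Schwann cell sorting response, was at 4.56 CPM in normal nerve and 7.93 in the tumour on average (log2 0.80, adjusted p = 0.0888), and all 6 tumours were above the normal median. Without normal nerve replicate 6, which was the highest normal library at 9.23 CPM, the log2 fold change was 1.13 and the adjusted p 0.00539. Ephb1 averaged 14.7 and 23.3 CPM (adjusted p = 0.203), and 1.12 on the log2 scale with an adjusted p of 0.00683 without that library. Ephb4, known from veins as the partner of ephrin-B2, averaged 11.02 and 13.1 CPM. With that library left out, 4 of the 5 EphB receptors were called higher, beside 14.6% of all genes in that fit.

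Epha8 and Epha10 had large estimates whose size depended on normal nerve replicate 6. Epha8 averaged 1.98 CPM in normal nerve and 0.551 in the tumour (log2 -1.82, adjusted p = 0.0776), and -0.77 on the log2 scale without that library (adjusted p = 0.192). Epha10, whose kinase domain is predicted to lack activity, averaged 11.8 and 4.43 CPM (log2 -1.41, adjusted p = 0.0523). Without replicate 6 its log2 fold change was smaller, -0.63, and its adjusted p was 0.0222. In 5 of 6 tumours Epha10 was below the lowest normal library. Epha3 averaged 3.16 and 2.34 CPM, Epha4, which binds ephrins of both classes, 18.7 and 14.7, Epha5 31.3 and 21.9, and Epha7 21.0 and 19.8. Epha5 turned direction without replicate 6, from -0.52 to 0.060 on the log2 scale.

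Among the 7 ephrins tested, 1 was called higher and 2 lower, beside 10.0% and 8.63% of all genes. Efnb1, a transmembrane ligand of EphB receptors (ENSMUSG00000031217.8, chrX:99136130-99148991), was at 13.2, 22.6 and 26.0 CPM in normal nerve and 27.1, 30.5 and 38.4 CPM in the tumour. The lowest tumour lay just above the highest normal library. The mean rose 1.46-fold from 21.2 ± 4.54 to 30.9 ± 4.09 CPM (log2 0.55, SE 0.14, adjusted p = 0.0204). Its share of the summed ephrin level per kb was 17.99% in normal nerve and 30.2% in the tumour, where it was the most abundant ephrin at 9.50 CPM per kb.

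Efnb2, the B-class ligand that marks arteries (chr8:8617434-8661242), went the other way. It was at 37.8, 40.3 and 49.4 CPM in normal nerve and 31.4, 33.1 and 38.4 CPM in the tumour, with 5 of 6 tumours below the lowest normal library. The mean fell to 0.805 of normal, from 42.0 ± 5.07 to 33.8 ± 2.76 CPM (log2 -0.31, SE 0.09, adjusted p = 0.0245). The call was lost without any 1 of 5 libraries (replicates 3 to 5 of normal nerve, or 4 and 6 of the tumour, adjusted p up to 0.0603), with a correction for transcript length (adjusted p = 0.0566) and with no filter on low counts (0.0602). The summed endothelial markers, which overlapped between the groups, are given above. Of the 9, Cdh5 was called lower, a call lost without any 1 of 6 libraries. The other 8 were not called, and 2 had estimates above 0. Their part in the change of Efnb2 was not tested.

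Efna5, a lipid-anchored ligand that repels axons in sensory maps (chr17:62604184-62881317), was at 16.1, 18.2 and 19.6 CPM in normal nerve and 12.2, 13.5 and 17.5 CPM in the tumour. In 5 of 6 tumours it was below the lowest normal library, and the normal libraries were close together. The mean fell to 0.774 of normal, from 18.2 ± 1.36 to 14.04 ± 1.89 CPM (log2 -0.37, SE 0.09, adjusted p = 0.0187). The ratio of Efnb1 to Efna5 CPM was 0.765, 1.21 and 1.45 in normal nerve and 1.57, 2.22 and 3.15 in the tumour, again a pair chosen for its opposite changes.

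The other ephrins were not called. Efna1, a ligand of Epha2 and the most abundant ephrin per length in normal nerve, averaged 14.5 and 12.3 CPM (log2 -0.23, adjusted p = 0.255). Efna2 averaged 2.10 and 2.27 CPM and Efna3 2.39 and 1.49 CPM. Efnb3, a B-class ligand of the midline and of myelinating cells in the CNS, averaged 16.7 and 5.72 CPM, but the normal mean was carried by replicate 6 at 66.9 CPM, beside 1.32 to 14.2 CPM in the other normal libraries. Its log2 fold change was -1.54 (adjusted p = 0.213), and -0.23 (adjusted p = 0.816) without that library.

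**Figure D3:**
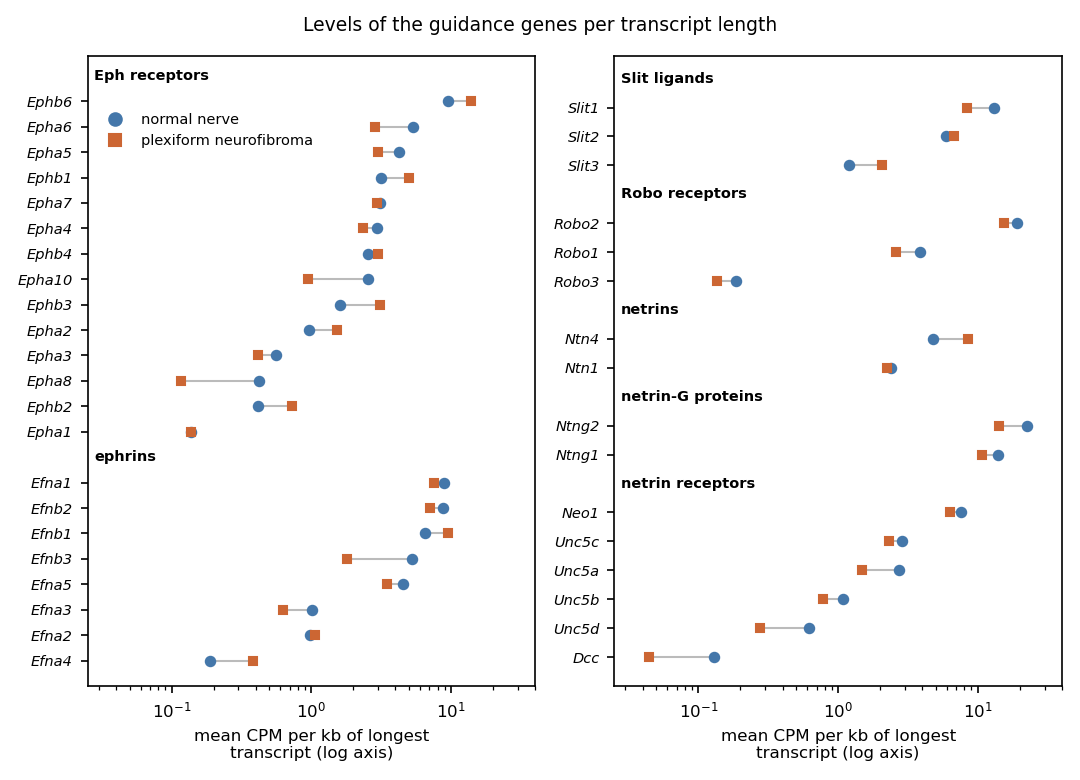
Mean CPM per kb of longest annotated transcript (x axis, log scale) of the 38 members in normal nerve (circles) and plexiform neurofibroma (squares), each the mean of 6 libraries, ordered within each role group by the normal level. Ntng2, Robo2, Ntng1 and Slit1 had the highest normal levels per kb, and Ephb6 led the Eph receptors in both groups.

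Slit1, a secreted repellent made mainly by neurons, was the most abundant Slit per length in both groups, at 13.1 CPM per kb in normal nerve and 8.41 in the tumour. It was at 52.1, 78.2 and 86.8 CPM in normal nerve and 38.2, 46.5 and 61.9 CPM in the tumour (chr19:41600257-41743665). The tumours lay below the normal median, 5 of 6 were below the lowest normal library, and that library was replicate 6. The mean fell to 0.643 of normal, from 74.2 ± 12.4 to 47.7 ± 9.04 CPM (log2 -0.64, SE 0.14, adjusted p = 0.00944).

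Slit2 and Slit3, the Slits more widely made outside neurons, were not called. Slit2 averaged 59.4 and 66.9 CPM. Slit3 averaged 6.23 and 10.8 CPM (log2 0.80, adjusted p = 0.0771), and 4 of 6 tumours were above the highest normal library. The Slit1 share of the summed Slit level per kb was 64.7% in normal nerve and 48.9% in the tumour, that of Slit2 was 29.5% and 39.1%, and that of Slit3 was 5.89% and 12.0%. The normal library lowest in Slit3, at 2.03 CPM, was replicate 2, which also had the lowest fibroblast and Schwann cell marker sums.

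All 3 Robo receptors were below 0 in the tumour, beside 9049 of all 17236 genes. Of the 3, 1 was called lower, beside 8.63% of all genes. Robo1, a Slit receptor on axons and many other cells (chr16:72308306-73046095), was at 21.1, 29.5 and 36.9 CPM in normal nerve and 17.0, 20.1 and 21.4 CPM in the tumour. The tumours were close together, and 3 of 6 lay below the lowest normal library. The mean fell to 0.669 of normal, from 29.3 ± 5.17 to 19.6 ± 2.00 CPM (log2 -0.58, SE 0.12, adjusted p = 0.00675).

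Robo2, the main Robo of sensory ganglia, held 82.5% of the summed Robo level per kb in normal nerve and 84.9% in the tumour. It averaged 164 and 131 CPM (log2 -0.33, adjusted p = 0.120), and all 6 tumours were below the normal median. The lowest normal library was replicate 6 at 100.8 CPM, beside 154.6 to 208.6 CPM in the other normal libraries, and without it the log2 fold change was -0.43 with an adjusted p of 0.00498. Robo3, a receptor of midline-crossing axons, averaged 0.924 and 0.678 CPM.

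Of the 2 netrins, Ntn4, the netrin of basement membranes (chr10:93640681-93747207), was called higher. It was at 9.41, 18.3 and 23.6 CPM in normal nerve and 19.96, 30.7 and 46.4 CPM in the tumour, and 5 of 6 tumours were above the highest normal library. The mean rose 1.78-fold from 17.3 ± 4.82 to 30.8 ± 9.18 CPM (log2 0.83, SE 0.23, adjusted p = 0.0244). The call was lost without replicate 5 of normal nerve, or 4 or 6 of the tumour (adjusted p up to 0.0573). Per kb, Ntn4 was the more abundant of the 2 netrins, at 66.7% of their sum in normal nerve and 79.1% in the tumour.

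Ntn1, the chemoattractant of commissural axons, averaged 13.9 and 13.1 CPM (log2 -0.08, adjusted p = 0.939). The normal libraries were split, with 53.2 CPM in replicate 6 and 3.82 to 12.0 CPM in the others, and 7.10 to 17.9 CPM in the tumours. Without replicate 6 the log2 fold change was 1.11 with an adjusted p of 0.0289, and without the 3 libraries that stood apart it was 0.96 with an adjusted p of 0.0912.

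Netrin-G proteins are lipid-anchored synaptic adhesion molecules that bind Lrrc4c and Lrrc4 rather than Dcc. Ntng1 (chr3:109780040-110144011) was at 62.3, 72.2 and 106 CPM in normal nerve and 53.3, 58.5 and 67.9 CPM in the tumour, with 4 of 6 tumours below the lowest normal library. The mean fell to 0.762 of normal, from 78.2 ± 16.1 to 59.5 ± 5.82 CPM (log2 -0.39, SE 0.12, adjusted p = 0.0393). The call was lost without any 1 of 6 libraries (replicates 4 and 5 of normal nerve, or 1, 2, 4 and 6 of the tumour, adjusted p up to 0.0857), with a correction for transcript length (adjusted p = 0.0835), with no filter on low counts (0.0632) and without the 3 libraries that stood apart (0.0538).

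Ntng2 had the highest level per kb of all members in normal nerve, 22.3 CPM per kb, and 14.1 in the tumour. It averaged 43.6 and 27.6 CPM (log2 -0.66, adjusted p = 0.0505), just outside the threshold, with all 6 tumours below the normal median. Without normal nerve replicate 6, the lowest normal library at 21.1 CPM, the log2 fold change was -0.80 and the adjusted p 0.00296. Ntng2 overlaps 6530402F18Rik on the same strand, so the division of reads between them is uncertain.

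All 5 netrin receptors tested were below 0, beside 9049 of all 17236 genes. Without normal nerve replicate 6, 1 of the 5 was above 0. Of the 5, 1 (Unc5a) was called lower, beside 8.63% of all genes. Unc5a, which mediates repulsion by netrin-1 (ENSMUSG00000025876.15, chr13:54949411-55006018), was at 8.98, 9.77 and 17.5 CPM in normal nerve and 3.38, 6.12 and 8.19 CPM in the tumour. Every tumour lay below every normal library. The mean fell to 0.538 of normal, from 10.97 ± 3.28 to 5.90 ± 1.71 CPM (log2 -0.90, SE 0.22, adjusted p = 0.0162). Without replicate 6, the highest normal library, the log2 fold change was -0.71 (adjusted p = 0.0128). Unc5a overlaps Hk3 on the other strand, and the labels name both a stranded and an unstranded library kit.

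Neo1, the receptor of netrins and of RGM proteins, held 50.5% of the summed netrin receptor level per kb in normal nerve and 56.4% in the tumour. It averaged 55.8 and 46.6 CPM (log2 -0.26, adjusted p = 0.329). Unc5d averaged 5.67 and 2.53 CPM (log2 -1.16, adjusted p = 0.108), and -0.33 on the log2 scale (adjusted p = 0.248) without replicate 6. Unc5b averaged 6.34 and 4.60 CPM and turned direction without that library, from -0.46 to 0.45 on the log2 scale. Unc5c averaged 27.6 and 22.3 CPM. Dcc, the classic attractive netrin receptor, was not tested.

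**Figure D4:**
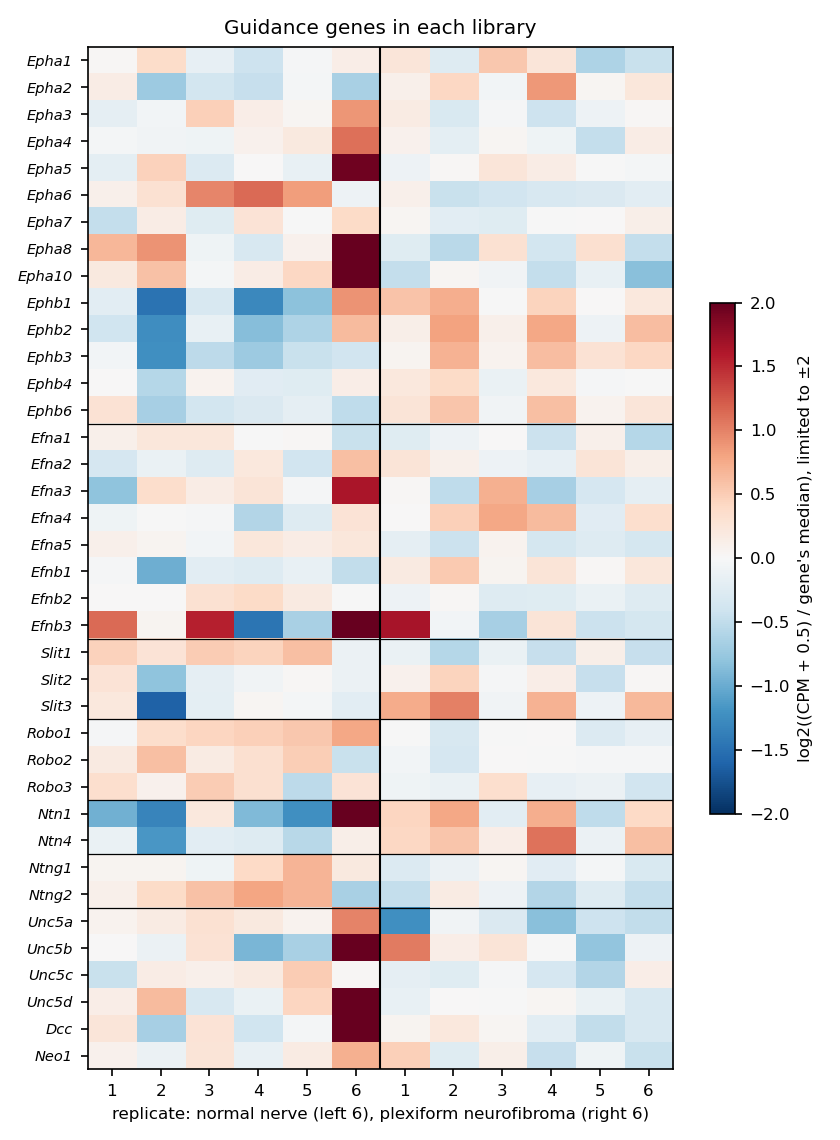
Level of each of the 38 members (rows, grouped by role) in each library (columns), as log2 of CPM plus 0.5 over the gene's median across the 12 libraries, limited to 2 in each direction. Normal nerve replicate 6 is the darkest column for Epha5, Epha8, Epha10, Efnb3, Ntn1, Unc5b, Unc5d and Dcc, and the tumour columns are redder for Ephb3 and Efnb1.

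The map of libraries shows how far 1 library carried the guidance genes: 22 of the 38 members were highest, among the 6 normal libraries, in replicate 6, and 13 were at least 2-fold over the median of the other 5 normal libraries there. Replicate 6 was not high throughout the set. Epha6, Efna1, Efnb2, Slit1, Robo2 and Ntng2 had their lowest normal value in it, as the summed sensory neuron markers did. Ephb3 and Efnb1 were at 8.50 and 18.8 CPM there, within the range of the other normal libraries.

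Of 44 partners and effectors of these receptors, all of them tested, 3 were called higher (6.82%, beside 10.0% of all genes) and 12 lower (27.3%, beside 8.63%), and their median log2 fold change was -0.19. The groups did not overlap in 7 (15.9%, beside 7.39%), 1 of them higher and 6 lower in the tumour. Without normal nerve replicate 6, 4 of the 44 were called higher and 20 lower, beside 14.6% and 14.2% of all genes in that fit. The 8 with the smallest p-values were called in every setting run.

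The Slit-Robo side held several of them. The proteins of Srgap3 and Srgap1 bind the inner part of Robo receptors. Srgap3 fell from 258 ± 27.7 to 175 ± 17.7 CPM (to 0.677 of normal, adjusted p = 0.00271). Srgap1 fell from 55.6 ± 8.40 to 39.4 ± 3.44 CPM (to 0.710, adjusted p = 0.00833). Of the same list, Srgap2 (67.4 and 71.0 CPM on average, adjusted p = 0.653) and Arhgap39 (78.1 and 88.6 CPM, adjusted p = 0.394) were not called. Enah, an actin regulator used by guidance receptors, fell from 327 ± 49.0 to 233 ± 22.4 CPM (to 0.711, adjusted p = 0.00794). On the netrin side, Trim9, a ubiquitin ligase that binds Dcc, fell from 43.7 ± 8.18 to 26.4 ± 3.81 CPM (to 0.603, adjusted p = 0.00363), and Dscam, a netrin co-receptor, from 22.6 ± 6.79 to 13.4 ± 2.55 CPM (to 0.595, adjusted p = 0.0157). Ptk2, the focal adhesion kinase, rose 1.39-fold from 36.9 ± 6.06 to 51.3 ± 7.29 CPM (adjusted p = 0.0165).

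Among partners of Eph and ephrin signalling, Nck2, an adaptor of ephrin-B reverse signalling, rose 1.62-fold from 7.97 ± 1.44 to 12.9 ± 2.16 CPM (adjusted p = 0.00753), and every tumour was above every normal library. Kalrn, a guanine nucleotide exchange factor downstream of EphB receptors, fell from 40.5 ± 6.98 to 25.5 ± 3.38 CPM (to 0.630, adjusted p = 0.00475), with no overlap. Also called were Adam10, a protease that cleaves ephrins, higher, and Vav3, Rgmb, Nell2, Usp33, Grip1 and Flrt2, lower. Each of these 7 calls was lost in at least 1 fit that left out 1 library. The number of libraries whose removal alone ended the call was 8 for Adam10, 10 for Usp33, 10 for Grip1 and 9 for Flrt2. It was 5 for Rgmb, 4 for Nell2 and 1 for Vav3 (normal nerve replicate 4). Over all genes the share called was 18.7% in the main fit. It ranged from 10.9% (without plexiform neurofibroma replicate 4) to 28.8% (without normal nerve replicate 6) as each library was left out. With no filter on low counts, the calls of Adam10, Nell2, Usp33, Grip1 and Flrt2 were lost too. That of Adam10 was also lost without the 3 libraries that stood apart (adjusted p = 0.0671). The transcript length correction ended the calls of Usp33 (adjusted p = 0.0652), Grip1 (0.0871) and Flrt2 (0.105). The skeletal muscle score as a covariate ended those of Adam10, Grip1 and Flrt2, and the sensory neuron score that of Adam10. The Schwann cell, fibroblast and macrophage markers had the counts of higher calls given above (5 of 10, 5 of 8 and 3 of 8). In the same libraries, the sensory neuron markers had a median log2 fold change of -0.21 (-0.33 without replicate 6). Beyond the fits with a marker score as a covariate, the part of these markers in the changes was not tested.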

How the data were processed

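RNA was measured in 12 trigeminal nerve libraries. The deposited table holds, for each gene symbol, the authors' estimated counts, of which 84.1 to 86.5% in each library were whole within 0.001. The submitters' processing notes name FastQC, STAR 2.4.2a, Salmon 0.60, DESeq2 and build mm10, with no role or order. Per the labels' protocols, polyA RNA was used, and both a KAPA stranded kit and an Illumina TruSeq v2 kit are named, so strand handling is uncertain.

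The deposited estimated counts were rounded. edgeR 4.0.16 (R 4.3.3) was run on all 12 libraries with filterByExpr, TMM factors and the robust quasi-likelihood test, with Benjamini-Hochberg adjustment over 17236 genes, and an adjusted p under 0.05 made a call. CPM (counts scaled to library size) used TMM library sizes. The test was first tested on simulated data. Coordinates and transcript lengths came from GENCODE vM21 (GRCm38, the same assembly as mm10): 45187 symbols matched directly, 610 through an older symbol and 1683 not. Levels between genes are compared per kb of longest transcript.

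The members and lists were chosen with earlier results of these data known. All members are accounted for: those called with full values, those with an unadjusted p under 0.05 or the highest level per kb of their role group with a log2 fold change, the others by group means, plus Nf1 and at most 8 called partners by p. Values without normal nerve replicate 6, and log2 fold changes of Epha5, Ephb1, Efnb3, Ntn1 and Unc5b, were added after they were seen. So were the values of Srgap2 and Arhgap39. Alternatives were DESeq2 1.42.0, voom with sample weights (limma 3.58.1), no filter or a stricter one (CPM above 1 in 6 or more libraries), upper-quartile or RLE factors, 3 marker scores as covariates, a transcript length correction (lowess, span 0.3) and leaving out each library. Leaving out 3 libraries together was chosen after seeing the data.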

Additional observations from a re-analysis of the deposited data

Results flagged for a closer look

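Over the 35 tested members, 70 groups of 6 libraries were examined for a library far from the rest, by the gap to the nearest other library over the group's range, and 15 stood out. Chance gives about 1 in 20.

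In 11 of the 15, normal nerve replicate 6 was the high library. Among Eph receptors and ephrins, it was at 33.7 CPM for Epha4 (others 14.5 to 17.8), 83.0 for Epha5 (17.3 to 29.1), 7.24 for Epha8 (0.417 to 1.63), 36.5 for Epha10 (5.41 to 8.65), 34.3 for Ephb1 (6.21 to 15.6), 6.04 for Efna3 (0.710 to 2.19) and 66.9 for Efnb3 (1.32 to 14.2). Among netrins and receptors, it was at 53.2 CPM for Ntn1 (3.82 to 12.0), 17.5 for Unc5a (8.98 to 10.8), 21.2 for Unc5b (1.88 to 4.95) and 18.1 for Unc5d (2.07 to 4.48).

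The other 4 concerned 4 libraries. Efnb3 was at 15.3 CPM in plexiform neurofibroma replicate 1, the tumour with the highest CNS marker sum, beside 2.65 to 5.48 in the other tumours. Slit3 was at 2.03 CPM in normal nerve replicate 2, beside 6.17 to 8.42. Robo2 was at 108.7 CPM in plexiform neurofibroma replicate 2, beside 132.3 to 138.1. Robo3 was at 1.07 CPM in plexiform neurofibroma replicate 3, beside 0.453 to 0.666.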

How the results depend on the processing

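The log2 fold changes of 38 genes (29 members, 8 partners and Nf1) were recomputed under 23 other settings, and 35 never turned direction where a setting gave a value. The 3 that did were Epha5, Ntn1 and Unc5b, and the cause was not tested. With limma-voom their log2 fold changes were 0.060, 0.97 and 0.36, without normal nerve replicate 6 they were 0.060, 1.11 and 0.45, and without the 3 libraries that stood apart 0.24, 0.96 and 0.19. Ntn1 was also above 0 with the sensory neuron score (0.17) or the CNS score (0.55) as a covariate, and without plexiform neurofibroma replicate 3 (0.011) or 5 (0.045). As each library was left out, the values ranged from -0.63 to 0.060 for Epha5, from -0.27 to 1.11 for Ntn1 and from -0.72 to 0.45 for Unc5b.

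The count of members called higher, 5, was 3 with no filter, when 32206 genes were tested, and ranged from 2 to 7 as each library was left out. The count of members called lower, 7, ranged from 5 to 10 over those. Some members not called in the main fit were called in other settings. Ephb1, Ephb2, Epha10, Robo2 and Ntng2 were called with limma-voom, and Epha8, Ephb2, Slit3 and Ntng2 with DESeq2. Ephb1, Ephb2 and Epha10 were called with either the sensory neuron or the CNS score. Epha4 and Unc5d were called with the sensory neuron score, and Efnb3 and Ntng2 with the CNS score. These settings called 22.2% to 32.4% of all genes, beside 18.7% in the main fit. The count of partners called higher, 3, was 5 with upper-quartile factors and with the length correction, 6 with DESeq2 and with the CNS score, 7 with limma-voom, and 2 to 5 as each library was left out. The count of partners called lower, 12, ranged from 7 (without replicate 4 of normal nerve, or 2 or 4 of the tumour) to 20 (without normal nerve replicate 6). Over all genes, 1730 higher and 1488 lower calls became 1364 and 902 with no filter, 2878 and 2707 with limma-voom, 2544 and 2487 without normal nerve replicate 6, and 1092 and 801 without plexiform neurofibroma replicate 4. No paired analysis was run, as the labels link no normal nerve library to a tumour library and give no litter. They also give no replicate numbers, and those used here follow the order of the samples in the series.

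At 14160025 to 19989351 counts per library, Epha1, Efna4 and Dcc had too few counts to be tested. Members had longer transcripts (median 4770 bases, beside 3192 for genes tested).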
